A study of Oryctolagus cuniculus with 8 samples.

Results

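The genes of translation elongation factor 1, EEF1A1, EEF1A2, EEF1B2, EEF1D and EEF1G, were examined across 8 one-colour Agilent arrays of cultured rabbit cells. Their probes were found by RefSeq transcript accession, and 9 of the 43603 different non-control probes of the array belonged to these 5 genes, out of 680 genes named in this way. EEF1B2 had 5 probes (A_04_P000846 to A_04_P000850, NM_001082399). The other genes had 1 probe each: A_04_P000166 for EEF1A1 (NM_001082339), A_04_P002506 for EEF1A2 (NM_001082031), A_04_P003381 for EEF1D (NM_001082369) and A_04_P001856 for EEF1G (NM_001101703). All 9 probes were well above background on all 8 arrays, none was saturated and none had a spot marked as uneven or outlying.

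Elongation factor 1 brings aminoacyl-tRNA to the ribosome during protein synthesis. Its A subunit binds GTP and the charged tRNA, and leaves the ribosome bound to GDP. The exchange complex then replaces GDP by GTP: EEF1B2 and EEF1D encode its exchange subunits, and EEF1G encodes a subunit that anchors the complex. EEF1A1 and EEF1A2 encode alternative forms of the A subunit. In mice and rats, EEF1A1 is found in most tissues, whereas EEF1A2 predominates in adult striated muscle and in neurons.

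All cells came from Dutch rabbits, and each array held the RNA of 1 sample. Late passage induced pluripotent stem (iPS) cells were the liver-derived line iPS-L1 at passage 23 and the stomach-derived line iPS-S1 at passage 22. Early passage iPS cells were iPS-L1 at passage 7 and iPS-S1 at passage 6. Embryonic stem (ES) cells were the lines rdES4 and rdES2-1. The somatic group held 1 array of cultured liver cells and 1 array of cultured stomach cells. ES cells are derived from the embryo and can form its tissues, and iPS cells are body cells that reprogramming has brought close to them. The medium was one for stem cells in the iPS and ES groups and another in the somatic group, so that cell state and medium cannot be told apart. The labels do not give the reprogramming factors, and each origin gave 1 iPS line. Nothing in the labels says that samples of a group came from separate animals, so p-values measure only the spread between these samples, which may be technical.

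The libraries differed in overall brightness. The 75th percentile of the processed signal (intensity units after background subtraction) lay between 273.8 and 341.5 on the 6 iPS and ES arrays, against 163.8 in liver cells and 154.8 in stomach cells. The 99th percentile lay between 29589 and 36204 on the iPS and ES arrays, against 22985 and 21749.8 in liver and stomach cells. Between 62.4% and 64.7% of probes were well above background on the iPS and ES arrays, against 57.8% and 58.4% in liver and stomach cells. The number of arrays limits the precision of every value. Slides (each scanned once) crossed the groups only in part: slide 1 held rdES4, both iPS-L1 arrays and liver cells, slide 2 held rdES2-1 and stomach cells, and slide 3 held both iPS-S1 arrays.

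Markers of the labelled cell types were present only in part. POU5F1, a pluripotency transcription factor, had a level of 7.08 and 7.12 in late iPS cells, 7.62 and 7.57 in early iPS cells, 7.14 and 6.69 in ES cells, and -3.63 and -3.46 in liver and stomach cells. Levels are log2 signals relative to the 75th percentile of the array, which is 0. PODXL, the other pluripotency marker tested, lay between 7.29 and 7.63 on the iPS and ES arrays. It was well above background in liver cells (2.34) but not in stomach cells (-4.54). Albumin (ALB), the chief hepatocyte marker, and the gastric pump subunit ATP4B were not well above background on both arrays of any group. Other hepatocyte genes, among them RBP4 (1.89), HP (-2.53) and TF (-1.62), were well above background in liver cells. However, RBP4 and HP had higher levels in stomach cells (3.75 and 2.16). TF (0.29 to 2.09) and HP (-1.93 to 0.50) were also higher on every iPS and ES array than in liver cells. RBP4 (-1.04 to 0.36) was lower on every iPS and ES array than in liver cells. The gastric gene ATP4A had a level of -3.69 and -3.81 in ES cells, against -4.40 in stomach cells, and PGC one of -3.41 and -3.41 in ES cells, against -4.08 in stomach cells, where both were well above background. DCN, a fibroblast matrix gene, had a level of 4.44 in liver cells and 5.42 in stomach cells, and was not well above background on any iPS or ES array. ACTA2, the smooth muscle actin, reached 7.02 in liver cells and 5.13 in stomach cells, against 0.79 at most in iPS and ES cells. The somatic samples are therefore called by their labels here, and fewer cells of a type and less RNA per cell cannot be told apart in them.

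EEF1A1, the general form of the A subunit, gave almost the same brightness on every array. Its signal was 57490.2 and 52098 in late iPS cells of liver and stomach origin, 56982 and 52620.5 in early iPS cells, 49625 and 55063 in ES cells, and 49150.4 and 51411 in liver and stomach cells. The signal ranges of the pluripotent and somatic cells overlapped, and on every array the probe stood between the 99.48th and 99.58th percentile of brightness.

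After scaling to the 75th percentile, EEF1A1 had a level of 7.40 and 7.46 in late iPS cells, 7.39 and 7.43 in early iPS cells, 7.50 and 7.47 in ES cells, and 8.23 and 8.38 in liver and stomach cells. On this scale both somatic arrays were above all 6 iPS and ES arrays. In order, somatic cells averaged 8.30 ± 0.10, ES cells 7.49 ± 0.02, late iPS cells 7.43 ± 0.04 and early iPS cells 7.41 ± 0.03 (SD, n = 2 each). Late and early iPS cells overlapped, and both ES arrays lay just above the iPS arrays.

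Relative to somatic cells, EEF1A1 fell by 0.89 ± 0.13 (log2, SE) in iPS cells, which makes it 1.85-fold lower, with an adjusted p of 0.00294 in limma with Benjamini-Hochberg adjustment. In ES cells it fell by 0.82 ± 0.13, or 1.76-fold (adjusted p = 0.00399, limma). Both falls depended on the scaling: with no scaling between arrays the difference was 0.12 in iPS cells and 0.06 in ES cells, with adjusted p of 0.562 and 0.790 (limma). Within slides, where single arrays allow no test, the difference at the 75th percentile was -0.84 for iPS cells and -0.73 for ES cells from liver cells on slide 1, and -0.90 for ES cells from stomach cells on slide 2. With the slide as a block, the iPS difference was not called (adjusted p = 0.0742, limma), in a fit that rests on the liver line.

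**Figure D1:**
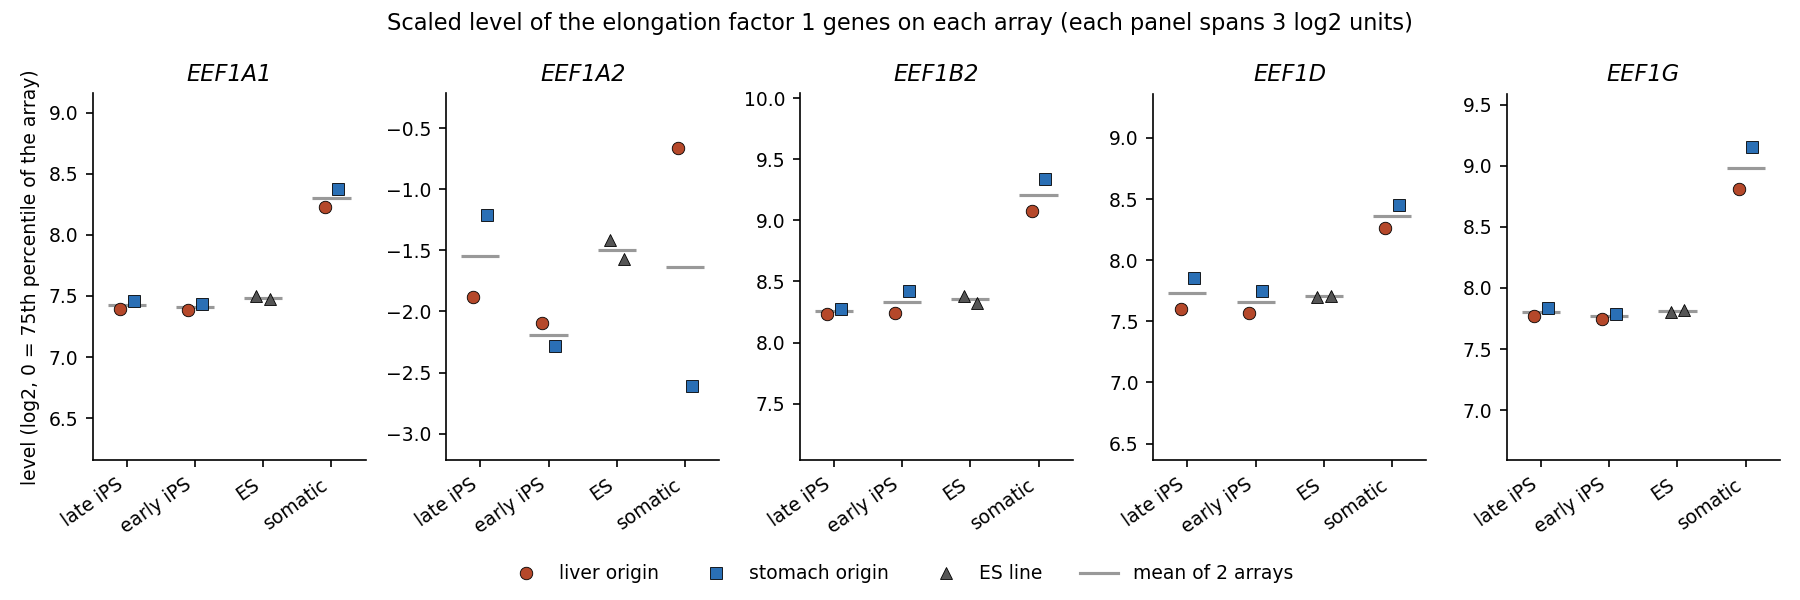
Level of each elongation factor 1 gene on each array, as log2 signal relative to the 75th percentile of the array (every panel spans 3 log2 units); points are arrays, coloured by origin, and lines are means of the 2 arrays of a group. EEF1A1, EEF1B2, EEF1D and EEF1G were higher in both somatic cell arrays on this scale, a direction that EEF1A1, EEF1B2 and EEF1D lost with no scaling between arrays and EEF1D also with quantile normalization, whereas EEF1A2 was spread most among the somatic arrays.

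EEF1B2, an exchange subunit, behaved alike on its 5 probes. Its brightest probe, A_04_P000847, had a signal of 102871 and 91912 in late iPS cells, 103253 and 104519 in early iPS cells, 91289.5 and 99458 in ES cells, and 88553 and 100477 in liver and stomach cells. The signals of late iPS, ES and somatic cells overlapped, and those of early iPS cells lay just above them.

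Scaled, this probe had a level of 8.23 and 8.27 in late iPS cells, 8.24 and 8.42 in early iPS cells, 8.38 and 8.32 in ES cells, and 9.08 and 9.34 in liver and stomach cells. In order, somatic cells averaged 9.21 ± 0.19, ES cells 8.35 ± 0.04, early iPS cells 8.33 ± 0.12 and late iPS cells 8.25 ± 0.03 (SD, n = 2 each). Early iPS cells overlapped with both other pluripotent groups, and the somatic arrays stood above all of them.

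Relative to somatic cells, EEF1B2 fell by 0.92 ± 0.15 (log2, SE) in iPS cells, or 1.89-fold (adjusted p = 0.00434, limma). In ES cells it fell by 0.86 ± 0.15, or 1.81-fold (adjusted p = 0.00564, limma). Across the 5 probes the difference lay between -0.92 and -0.82 in iPS cells, with adjusted p from 0.00371 to 0.00562 (limma), and between -0.91 and -0.83 in ES cells, with adjusted p from 0.00318 to 0.00620 (limma). Once each probe was centred on its mean over the 8 arrays, the 5 probes lay within 0.062 to 0.174 log2 units of one another on any array. With quantile normalization the 5 probes differed more, from -0.65 to -0.03 in iPS cells and from -0.64 to -0.09 in ES cells. The probes share 1 transcript and are not replicates of a condition.

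**Figure D2:**
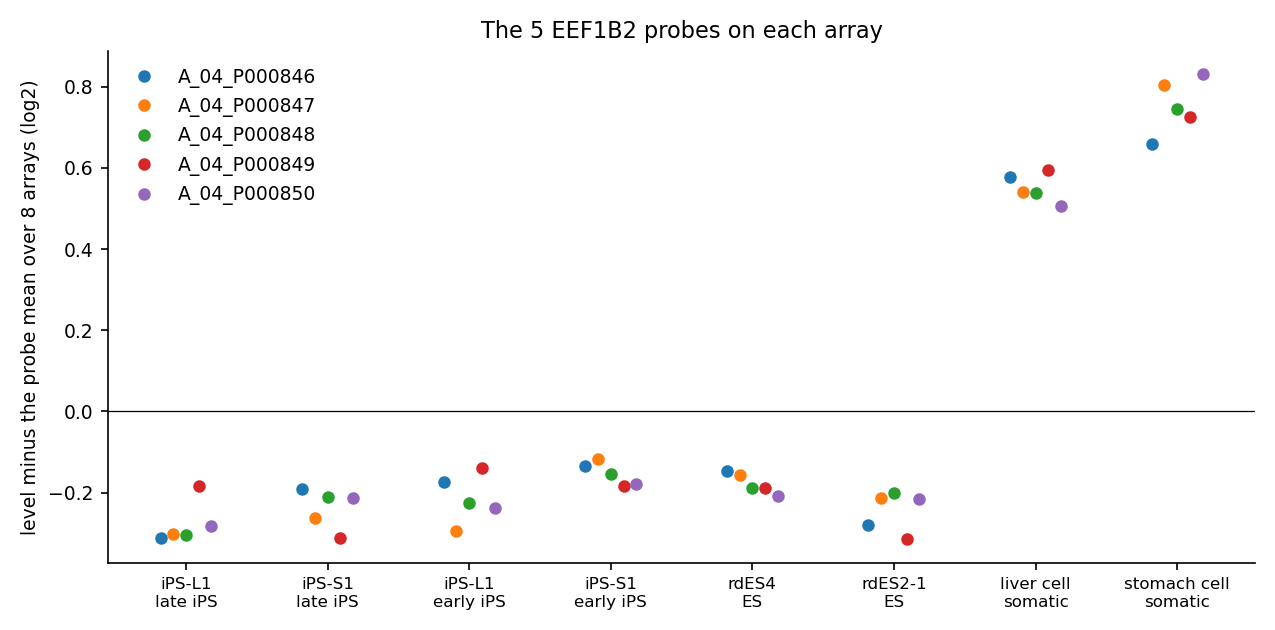
Level of each of the 5 EEF1B2 probes on each of the 8 arrays, after subtracting the mean of that probe over the arrays (log2 units, 75th percentile scaling). The 5 probes of an array lie within 0.174 log2 units, below 0 on the 6 iPS and ES arrays and above 0.50 in liver and stomach cells, a difference that was called for 1 of the 5 probes under quantile normalization and for 0 with no scaling between arrays, where its sign in iPS cells turned positive.

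EEF1D, the second exchange subunit, was brighter in pluripotent cells before scaling. Its signal was 66438 and 68684 in late iPS cells, 64599.6 and 65753.5 in early iPS cells, 56947 and 64867 in ES cells, and 50386 and 54262 in liver and stomach cells. All 6 pluripotent arrays were thus above both somatic arrays.

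The order turned round on scaling to the 75th percentile. EEF1D then had a level of 7.60 and 7.85 in late iPS cells, 7.57 and 7.75 in early iPS cells, 7.70 and 7.71 in ES cells, and 8.27 and 8.45 in liver and stomach cells. The group means were 7.73 ± 0.18 in late iPS, 7.66 ± 0.13 in early iPS, 7.70 ± 0.01 in ES and 8.36 ± 0.13 in somatic cells (SD, n = 2 each), and the iPS and ES groups overlapped. On this scale EEF1D fell by 0.67 ± 0.15 (log2, SE) in iPS cells, or 1.59-fold (adjusted p = 0.0127, limma), and by 0.66 ± 0.15 in ES cells, or 1.58-fold (adjusted p = 0.0139, limma), relative to somatic cells. With no scaling the difference was 0.34 in iPS cells and 0.22 in ES cells, with adjusted p of 0.133 and 0.315 (limma). Without either ES array the ES call was lost, with adjusted p of 0.0585 and 0.0574 (limma).

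EEF1G, the anchoring subunit, had the largest of the 5 genes' differences between pluripotent and somatic cells at the 75th percentile. Its signal was 74678 and 67649.6 in late iPS cells, 73293 and 67456 in early iPS cells, 61064 and 69929 in ES cells, and 73472 and 88172 in liver and stomach cells. The stomach cells gave the highest signal of the 8 arrays, and the liver cells lay within the pluripotent range.

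Scaled, EEF1G had a level of 7.77 and 7.83 in late iPS cells, 7.75 and 7.79 in early iPS cells, 7.80 and 7.82 in ES cells, and 8.81 and 9.15 in liver and stomach cells. Group means were 7.80 ± 0.04 in late iPS, 7.77 ± 0.03 in early iPS, 7.81 ± 0.01 in ES and 8.98 ± 0.24 in somatic cells (SD, n = 2 each), late iPS cells overlapping with both other pluripotent groups. Relative to somatic cells EEF1G fell by 1.20 ± 0.16 (log2, SE) in iPS cells, or 2.29-fold (adjusted p = 0.00232, limma), and by 1.17 ± 0.16 in ES cells, or 2.25-fold (adjusted p = 0.00251, limma). Its sign was negative under all 5 treatments of the arrays, but with quantile normalization (-0.36 in iPS and -0.41 in ES cells) and with no scaling (-0.19 and -0.30) it was not called.

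Within slides the exchange complex genes were also lower in pluripotent cells at the 75th percentile, each value resting on single arrays or 1 line. On slide 1, the iPS-L1 line differed from liver cells by -0.84 for EEF1B2, -0.68 for EEF1D and -1.05 for EEF1G, and rdES4 differed from liver cells by -0.70, -0.57 and -1.01 for the same genes. On slide 2, rdES2-1 differed from stomach cells by -1.02, -0.745 and -1.34. With the slide as a block in limma, the iPS differences were not called, with adjusted p of 0.0782 for EEF1B2, 0.105 for EEF1D and 0.0556 for EEF1G, and in ES cells EEF1D alone of these 3 lost its call (adjusted p = 0.0632).

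Of the 9 member probes, 8 were called lower in iPS cells than in somatic cells at the 75th percentile, where 66.6% of all 28844 tested probes were called and 32.4% were called lower. In ES cells, 8 of 9 were again called lower, against 64.0% of all probes called and 29.6% called lower. Both comparisons use the same somatic arrays, and 5 of the 9 probes belong to EEF1B2 alone. By gene, EEF1A1, EEF1B2, EEF1D and EEF1G were called lower in both comparisons and EEF1A2 in neither. The median difference of the member probes was -0.87 in iPS cells and -0.84 in ES cells, against 0.02 and 0.07 over all tested probes. Apart from EEF1A2, the member probes stood above the 97.4th percentile of brightness on every array, so the median of all probes is not a like baseline. With quantile normalization the member median was -0.11 in both comparisons. Whether bright probes in general shifted alike was not tested. Among the 509 tested genes that carried a RefSeq name, 113 were called higher and 231 lower in iPS cells, with a median of -0.61.

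How much of this held depended on how the arrays were brought to one scale. With quantile normalization, 1 of the 9 probes (the EEF1B2 probe A_04_P000849) was called lower in iPS cells and 1 in ES cells, where 29.0% and 27.5% of all probes were. With no scaling between arrays, 0 of 9 were called lower or higher in either comparison, where 12.4% and 13.1% of all probes were called lower. Without scaling, the median of all tested probes shifted by 1.03 in iPS cells and by 0.94 in ES cells. Relative to that shift, the EEF1A1 difference was -0.90 and -0.89, and that of EEF1B2 -0.94 and -0.93. That of EEF1D was -0.68 and -0.73, and that of EEF1G -1.215 and -1.243. A constant scaling of each array cancels in this subtraction. These values therefore repeat the result of percentile scaling and do not show a fall that survives without scaling. Quantile normalization moved the median of all probes to 0.11 in iPS cells and 0.14 in ES cells. Relative to it, the difference in iPS cells was -0.22 for EEF1A1, -0.15 for EEF1B2, 0.02 for EEF1D and -0.47 for EEF1G.

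After normexp background correction, EEF1A1, EEF1B2, EEF1D and EEF1G were all called lower, with differences of -0.95 to -0.44 in iPS cells and -1.07 to -0.59 in ES cells, where 52.2% and 49.0% of all probes were called lower. The median of all probes was then -0.39 in iPS cells and -0.32 in ES cells. Scaled to the 99th percentile, near which these probes stand, EEF1A1 (-0.50 and -0.43), EEF1B2 (-0.53 and -0.47) and EEF1G (-0.81 and -0.78) were still called lower, while EEF1D had -0.28 and -0.27 with adjusted p of 0.138 and 0.157 (limma). Of all probes, 22.7% and 20.6% were called lower at that scaling. The share of calls that were higher was 51.4% in iPS cells at the 75th percentile, 55.5% with quantile normalization, 82.5% without scaling, 33.5% after normexp and 66.0% at the 99th percentile. In ES cells these shares were 53.7%, 56.3%, 81.45%, 34.3% and 68.4% in the same order. Over all alternatives run against somatic cells, the adjusted p (limma) in iPS cells ranged from 0.000219 to 0.562 for EEF1A1, 0.000488 to 0.851 for EEF1B2, 0.00262 to 0.414 for EEF1D and 0.000146 to 0.427 for EEF1G. In ES cells it ranged from 0.000700 to 0.835 for EEF1A1, 0.00142 to 0.948 for EEF1B2, 0.00244 to 0.575 for EEF1D and 0.000209 to 0.214 for EEF1G. Which treatment matches the RNA content of the cells was not tested.

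**Figure D3:**
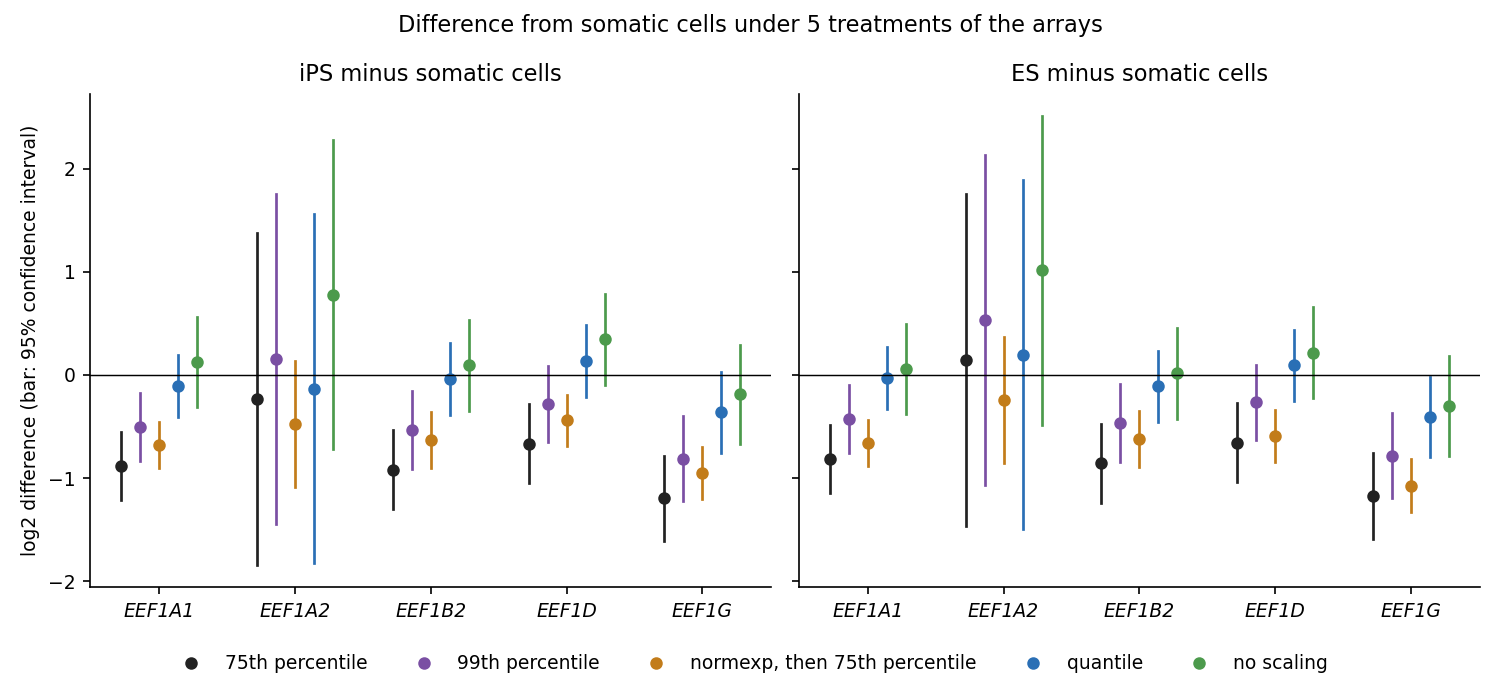
Difference of iPS and of ES cells from somatic cells (log2) for each gene under 5 treatments of the arrays; points are limma estimates and bars their 95% confidence intervals. EEF1A1, EEF1B2 and EEF1D lie below 0 at the 75th percentile, the 99th percentile and after normexp, EEF1D turns above 0 with quantile normalization and all 3 with no scaling, EEF1G stays below 0 under all 5, and the intervals of EEF1A2 span 0.

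Differences between 2 probes of the same array are free of any constant scaling, so the exchange subunits were also set against EEF1A1 on each array. Only the change of such a difference between arrays is used, since 2 probes need not report amounts alike. EEF1D minus EEF1A1 was 0.21 and 0.40 in late iPS cells, 0.18 and 0.32 in early iPS cells, 0.20 and 0.24 in ES cells, and 0.04 and 0.08 in liver and stomach cells. All 6 pluripotent arrays were above both somatic arrays.

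With the 2 passages of each iPS line averaged, EEF1D minus EEF1A1 was 0.25 ± 0.08 in pluripotent cells (SD, n = 4) and 0.06 ± 0.03 in somatic cells (SD, n = 2), a change of 0.19. The two-sided exact permutation test gave p = 0.133, which is the smallest value that 4 units against 2 allow, and 0.267 after Benjamini-Hochberg adjustment over the 4 within-array differences tested. Within slides the change was 0.16 for iPS cells and 0.16 for ES cells against liver cells, and 0.16 for ES against stomach cells. Its sign was the same in 13 of 13 alternatives tried, most of which could not turn it. Constant scaling cancels in it, and since the arrays did not overlap, leaving out 1 array cannot change the sign. The change was 0.18 with quantile normalization and 0.15 after normexp. After normexp the ES and somatic arrays overlapped.

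EEF1G minus EEF1A1 moved the other way. It was 0.38 and 0.38 in late iPS cells, 0.36 and 0.36 in early iPS cells, 0.30 and 0.34 in ES cells, and 0.58 and 0.78 in liver and stomach cells. The pluripotent mean was 0.35 ± 0.03 (SD, n = 4) and the somatic mean 0.68 ± 0.14 (SD, n = 2), a change of -0.33 with no overlap of arrays. The exact permutation test again gave its smallest p, 0.133 (two-sided), or 0.267 adjusted. Within slides the change was -0.21 for iPS cells and -0.28 for ES cells against liver cells, and -0.43 for ES against stomach cells. The sign was the same in 13 of 13 alternatives, among which those of constant scaling again could not alter it. Nor could leaving out 1 array, since the arrays did not overlap. The change was -0.31 with quantile normalization and -0.34 after normexp.

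EEF1B2 moved with EEF1A1. Their within-array difference averaged 0.87 ± 0.03 in pluripotent cells (SD, n = 4) and 0.91 ± 0.08 in somatic cells (SD, n = 2), a change of -0.04 (exact permutation p = 0.533, two-sided). The groups overlapped. With EEF1A1 as the reference for all probes, the EEF1B2 difference from somatic cells was -0.03 in iPS cells and -0.04 in ES cells, that of EEF1D 0.22 and 0.16, and that of EEF1G -0.31 and -0.36. None of these was called in limma, with adjusted p for EEF1G of 0.106 and 0.0721.

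**Figure D4:**
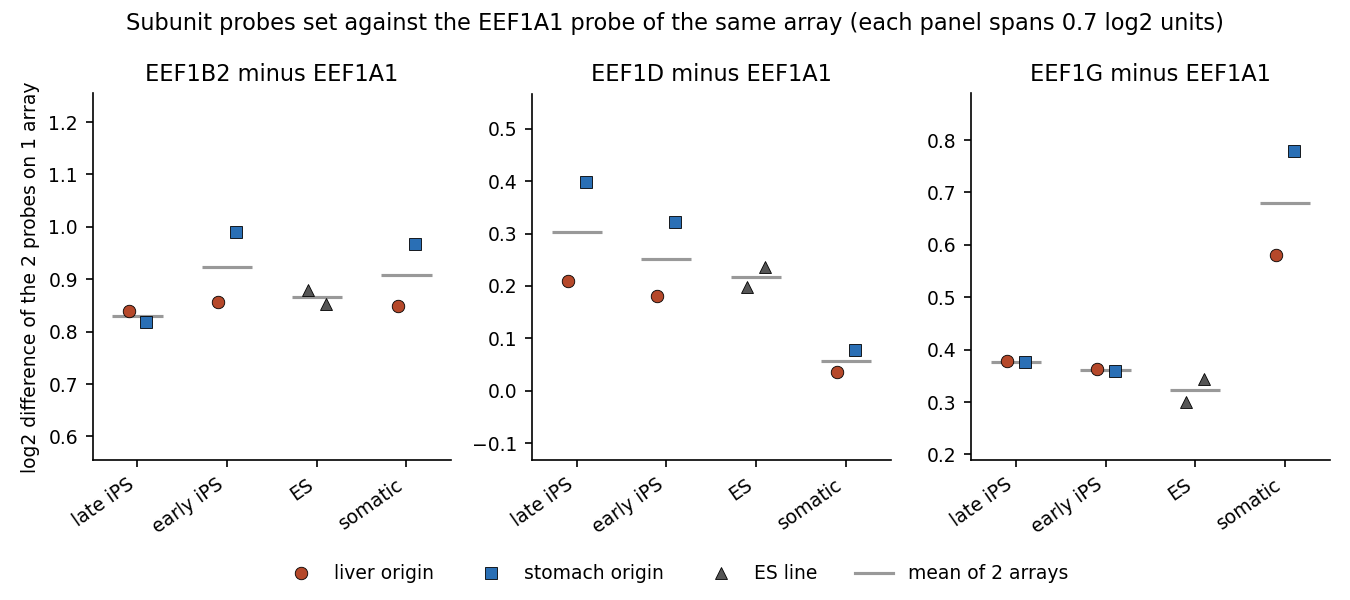
Within-array differences of the EEF1B2, EEF1D and EEF1G probes from the EEF1A1 probe (log2, every panel spans 0.7 units); points are arrays and lines are means of the 2 arrays of a group. EEF1D minus EEF1A1 is above 0.18 on all iPS and ES arrays and below 0.08 in liver and stomach cells, EEF1G minus EEF1A1 is below 0.38 and above 0.57, and the EEF1B2 groups overlap.

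EEF1A2, the muscle and neuron form of the A subunit, was dim and did not separate pluripotent from somatic cells. Its signal was 92.6 and 128.0 in late iPS cells, 79.9 and 62.6 in early iPS cells, 102.4 and 104.3 in ES cells, and 103.2 in liver cells against 25.4 in stomach cells. Stomach cells were the lowest of the 8 arrays, and liver cells lay inside the range of the pluripotent cells. The probe stood at the 70.3rd percentile of brightness in liver cells and the 55.9th in stomach cells.

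The scaled level of EEF1A2 was -1.88 and -1.21 in late iPS cells, -2.09 and -2.28 in early iPS cells, -1.42 and -1.57 in ES cells, and -0.67 and -2.61 in liver and stomach cells. On this scale liver cells were the highest and stomach cells the lowest of all arrays. Group means in order were -1.495 ± 0.108 in ES cells, -1.55 ± 0.47 in late iPS cells, -1.64 ± 1.37 in somatic cells and -2.19 ± 0.14 in early iPS cells (SD, n = 2 each), and the somatic pair spanned all the others.

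No difference of EEF1A2 from somatic cells was called: it was -0.23 in iPS cells (95% confidence interval -1.84 to 1.38, adjusted p = 0.760, limma) and 0.14 in ES cells (-1.47 to 1.75, adjusted p = 0.855, limma). The value turned on which somatic culture was used. Without liver cells it was 0.74 in iPS cells (adjusted p = 0.0240) and 1.11 in ES cells (adjusted p = 0.00769), and without stomach cells -1.20 (adjusted p = 0.00640) and -0.83 (adjusted p = 0.0184), all in limma, with the remaining somatic array assumed to vary like the other groups. Within slides the iPS-L1 line differed from liver cells by -1.32, rdES4 differed from liver cells by -0.75 and rdES2-1 differed from stomach cells by 1.04.

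The balance of the A subunit forms, EEF1A1 minus EEF1A2 on the same array, followed EEF1A2. It was 9.28 and 8.67 in late iPS cells, 9.48 and 9.715 in early iPS cells, 8.92 and 9.04 in ES cells, and 8.90 in liver cells against 10.98 in stomach cells. Liver cells lay within the pluripotent range, and the nearest array to stomach cells, early iPS-S1, differed from them by -1.27.

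In pluripotent cells the balance averaged 9.13 ± 0.20 (SD, n = 4), against 9.94 ± 1.48 in somatic cells (SD, n = 2), a change of -0.81 (exact permutation p = 0.667, two-sided). The change was -0.655 for iPS cells and -0.96 for ES cells against somatic cells, with an exact p of 1 each, where 2 units against 2 cannot go below 0.333. The change for pluripotent cells was -1.85 without liver cells and 0.24 without stomach cells. It was -0.10 with quantile normalization and -0.31 after normexp. Between iPS and ES cells it was 0.30, with means of 9.285 ± 0.132 and 8.98 ± 0.09 (SD, n = 2 each) and an exact permutation p of 0.333. On slide 1 that change was 0.46.

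**Figure D5:**
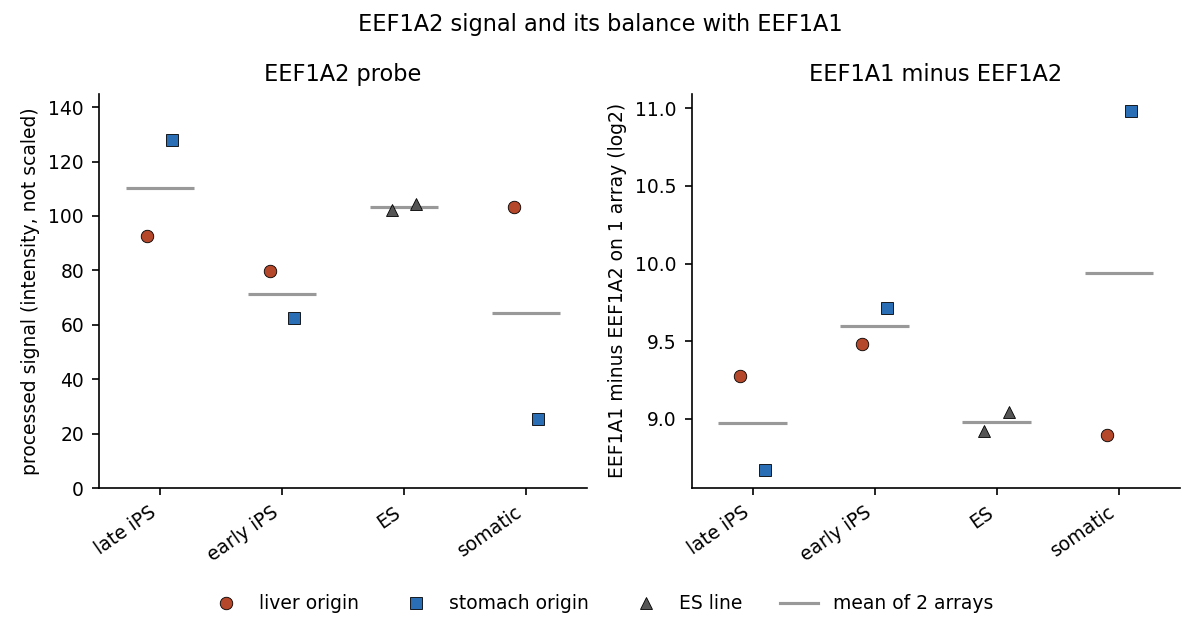
Processed signal of the EEF1A2 probe (left, linear intensity axis from 0) and the within-array difference of EEF1A1 minus EEF1A2 (right, log2) on each array; points are arrays and lines are means of the 2 arrays of a group. Stomach cells have the lowest EEF1A2 signal, 25.4, and the highest difference, 10.98, while liver cells, at 103.2 and 8.90, lie among the iPS and ES arrays.

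iPS and ES cells were compared directly for all 5 genes, and 0 of the 9 probes were called, as were 0.00% of all probes (0 of 28844 in limma, with 2140 at an unadjusted p under 0.05). The difference of iPS from ES cells was -0.07 for EEF1A1 (95% confidence interval -0.399 to 0.259), -0.06 for EEF1B2 (-0.44 to 0.32), -0.01 for EEF1D (-0.39 to 0.37) and -0.02 for EEF1G (-0.44 to 0.39). For EEF1A2 it was -0.37, with the far wider interval of -1.98 to 1.24. With 2 units a group, the intervals rest on a spread shared with the somatic units. For EEF1A2 the SD was 1.37 in somatic units, against 0.17 in iPS and 0.11 in ES units. Differences within these intervals remain possible. On slide 1 the values were -0.11 for EEF1A1, -0.57 for EEF1A2, -0.14 for EEF1B2, -0.11 for EEF1D and -0.04 for EEF1G.

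Passage was compared within the iPS lines. None of the 9 probes was called between late and early iPS cells, and 0.0277% of all probes were (8 of 28844 in limma). The late minus early difference was 0.02 for EEF1A1 (95% confidence interval -0.275 to 0.309), -0.08 for EEF1B2 (-0.43 to 0.27), 0.07 for EEF1D (-0.2995 to 0.439) and 0.03 for EEF1G (-0.330 to 0.398).

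EEF1A2 was higher at late than at early passage in both lines, by 0.21 in iPS-L1 and by 1.07 in iPS-S1. The mean difference of 0.64 had a 95% confidence interval of -0.83 to 2.12 and an adjusted p of 0.848 (limma). That p rests on a spread shared by all 4 groups, and does not measure the spread of the iPS arrays alone. The SD was 1.37 in somatic cells, against 0.47 in late and 0.14 in early iPS cells. The balance was lower at late passage in both lines, with 8.97 ± 0.43 in late and 9.60 ± 0.17 in early iPS cells (SD, n = 2 each), a change of -0.62 and an exact permutation p of 0.333, the smallest this design allows.

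By origin, EEF1A1, EEF1B2, EEF1D and EEF1G were below the somatic cells of origin in both lines at both passages at the 75th percentile, whereas without scaling EEF1A1 and EEF1D were above them in 4 of 4 pairs of arrays, EEF1B2 in 3 of 4 and EEF1G in 1 of 4. EEF1G differed by -1.04 (late) and -1.06 (early) in the liver line and by -1.32 and -1.365 in the stomach line. The line iPS-S1 had the higher EEF1D level at both passages, 7.85 and 7.75, against 7.60 and 7.57 in iPS-L1.

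Other steps of translation were covered thinly by named probes. Of 30 genes of elongation and termination, 1 had a named probe: ETF1, the release factor that recognises stop codons. It rose by 0.67 in iPS cells against somatic cells (adjusted p = 0.0350, limma), and had a difference of 0.35 in ES cells (adjusted p = 0.193, limma). The direction in iPS cells was kept with quantile normalization (0.80) and normexp (0.95). With no scaling and with EEF1A1 scaling it was also positive, but there the median of all probes was itself 1.03 and 0.90. None of 80 ribosomal protein genes had a named probe.

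Of 44 initiation genes, 10 were tested. In iPS cells 6 rose and 0 fell against somatic cells, where 34.3% of all probes were called higher, with a median difference of 0.54 against 0.02 over all probes. In ES cells 3 rose (EIF4E, EIF2B4 and EIF4G2), a share near the 34.4% of all probes called higher, and 1 fell, with a median of 0.29 against 0.07. The 1 that fell, EIF2AK2, the interferon-induced kinase of eIF2, had a difference of -1.31 (adjusted p = 0.0255, limma), and is named after its value was seen. EIF4E, the cap-binding protein, rose by 1.16 in iPS cells (adjusted p = 0.00150) and by 1.102 in ES cells (adjusted p = 0.00180), both in limma. EIF2B5, a subunit of the exchange factor of eIF2, rose by 0.77 in iPS cells (adjusted p = 0.00469, limma). EIF2B4, another of its subunits, rose by 0.67 (adjusted p = 0.00677, limma), and EIF4G2, a scaffold related to eIF4G, rose by 0.82 (adjusted p = 0.00684, limma). Without scaling 9 of the 10 were called higher and 0 lower in each comparison, where 58.6% of all probes in iPS cells and 57.4% in ES cells were called higher. With quantile normalization 6 were called higher and 1 lower in ES cells, where 10235 of 28844 probes were called higher. After normexp 5 were called higher and 1 lower in ES cells, where 7379 probes were called higher. In iPS cells 7 were called higher under each, where 10418 and 7577 probes were, with 0 and 1 lower.

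Since EEF1A2 is the form of muscle and neurons, genes of striated muscle and neurons were listed, and 6 of 35 were tested. TNNC2, fast skeletal troponin C, had a level of 2.46 and 2.34 in late iPS cells, 3.16 and 3.97 in early iPS cells, 2.70 and 2.51 in ES cells, and -5.64 and -4.96 in liver and stomach cells. In both somatic cultures its probe was not well above background. Against the lowest signal well above background on the somatic arrays, it was at least 190-fold higher in iPS cells and at least 147-fold higher in ES cells. CKMT2, the sarcomeric mitochondrial creatine kinase, was likewise not well above background in either somatic culture, and was at least 24.6-fold higher in iPS and at least 22.7-fold higher in ES cells. These bounds depended on the background treatment. In log2 units they were 7.57 in iPS and 7.20 in ES cells for TNNC2, and 4.62 and 4.51 for CKMT2. After normexp the differences fell below them, to 4.49 and 4.04 for TNNC2 and 1.98 and 1.91 for CKMT2. Both probes entered the test only through the pluripotent groups, so no count or median over this list is read as a result. RYR1, the calcium release channel of skeletal muscle, had a difference of 1.96 in iPS cells (adjusted p = 0.00372, limma). Its probe was not well above background in liver cells, so it too entered the test only through the pluripotent groups. Its call is therefore not read as a result either. After normexp its difference was -0.0026 (adjusted p = 0.986, limma).

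The mean differences of the other list members from somatic cells were negative at the 75th percentile, but single arrays varied. TNNI2, fast skeletal troponin I, fell by 2.35 in iPS cells (adjusted p = 0.0130, limma), and by 1.16 after normexp (adjusted p = 0.00288). CKM, the muscle creatine kinase, had a difference of -0.77 (adjusted p = 0.348, limma) and ATP2A1, the calcium pump of fast muscle, one of -0.68 (adjusted p = 0.438, limma). After normexp both were called lower, by differences of -0.64 and -0.76 (adjusted p of 0.0220 and 0.0127, limma). At the 75th percentile CKM reached -2.06 in late iPS-S1, above liver (-3.67) and stomach cells (-3.10). ATP2A1 was above liver cells (-3.89) in rdES2-1 (-2.91) and in late (-3.02) and early iPS-S1 (-3.64), and below stomach cells (-2.04). The level of EEF1A2 in the same pluripotent arrays lay between the liver and stomach cell levels, and its relation to these genes was not tested.

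The named genes whose pattern was nearest to EEF1A1 over the 8 arrays were EEF1B2, EDN1 and ACTB. Likeness was the root mean square difference of centred levels, in which a constant scaling of an array cancels, and was ranked over 372 other named genes well above background on all arrays. It was 0.058 for EEF1B2, 0.066 for EDN1 (endothelin) and 0.091 for ACTB (beta-actin), against a median of 0.58. EEF1D ranked 5th at 0.11, EEF1G 15th at 0.15 and EEF1A2 219th at 0.69. For EEF1A2 no gene was as near: the closest were SLC12A7, a potassium chloride cotransporter, at 0.42, CKB, the brain-type creatine kinase, at 0.42 and the kinase gene STK17A at 0.45, against a median of 0.79. SLC12A7 had its lowest level, 2.81, in stomach cells and its highest, 4.87, in liver cells. The 8 points share arrays and groups, and these values describe them without a test.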

How the data were processed

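Per the file headers, the deposited intensities were processed signals of Agilent Feature Extraction 10.5.1.1, background-subtracted and not scaled between arrays. The authors' deposited value table, on a log2 scale, matched log2 intensity minus the 75th percentile, centred per probe (correlations of 0.9999 to 1, column medians -0.04161 to 0.3423), and served as an alternative. Genome build and aligner do not apply, and no probe sequences were used here.

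From the intensities, log2 signal minus the 75th percentile of the non-control spots of each array was taken, and spots of a probe were averaged. Probes with a marked spot (38) were left out, and 28844 probes well above background on both arrays of at least 1 of 4 groups entered the limma fit (version 3.58.1, R 4.3.3, two-sided, Benjamini-Hochberg over all tested probes, threshold 0.05), checked on simulated data. Against ES or somatic cells, the 2 passages of an iPS line were averaged (6 units, 3 groups). Passages were compared over 8 arrays in 4 groups. Gene names came from RefSeq accessions through mOryCun1.1 (1933 probes, 680 genes), and the brightest probe stood for a gene. Differences between probes of an array were tested by exact permutation.

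The iPS line names pair the late and early samples (correlation of deviations 0.224). Alternatives were quantile normalization, no scaling, normexp (offset 50, on the median signal, since the mean was not given), 99th percentile or EEF1A1 scaling (both added after seeing the data), background filters, blocks and leaving out each array. Named genes were the 5 members, members of fixed lists (all of up to 8, otherwise the 4 with the largest statistic) and the 3 nearest in pattern to EEF1A1 and EEF1A2. The members and lists were chosen with earlier results of these data known.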

Additional observations from a re-analysis of the deposited data

Results flagged for a closer look

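EEF1A2 went opposite ways in the 2 iPS lines relative to their somatic cells of origin. In the liver line it was lower than in liver cells, by a log2 difference of -1.216 at late passage and -1.426 at early passage. In the stomach line it was higher than in stomach cells, by 1.395 at late passage and 0.324 at early passage. Each somatic culture is 1 array and the difference between origins was not tested. The EEF1A2 level was -0.67 in liver cells and -2.61 in stomach cells, and between -2.28 and -1.21 on the 4 iPS arrays.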

How the results depend on the processing

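The direction of EEF1A1, EEF1B2 and EEF1D relative to somatic cells depends on how arrays are brought to one scale, and the cause was not tested. With 2 arrays a group, 1 somatic array decides EEF1A2, and the slide is partly confounded with group: slide 3 holds the stomach iPS line alone, so under a slide block only iPS-L1 informs iPS against ES or somatic cells.

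Counting genes by their brightest probe, 4 of 5 were called in each somatic comparison, but 0 with quantile normalization or no scaling in either, and 0 for iPS cells with the slide as a block, where 9927 probes were called in place of 19215. For iPS and ES cells against somatic cells, no scaling turned the difference to 0.123 and 0.0564 for EEF1A1, 0.0915 and 0.0146 for EEF1B2, and 0.34 and 0.22 for EEF1D. EEF1D was also 0.135 and 0.0927 with quantile normalization and 0.22 and 0.16 when scaled to EEF1A1. Without 1 array, EEF1A2 ranged from -1.202 to 0.741 in iPS cells and from -0.829 to 1.113 in ES cells, the ends being those without stomach and without liver cells. Leaving out 1 array gave 4 to 5 genes called for iPS cells and 3 to 5 for ES cells.

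Probes called between iPS and ES cells were 2 without scaling and 6 with the line as a random block, in place of 0. Between late and early iPS cells, 0 in place of 8 were called with no background filter, with probes well above background on all 8 arrays, or with the slide as a block, and 0 to 1 when leaving out 1 array. With the iPS line as a replicate block the count was also 0, and the members' differences were as without the pairing (EEF1A2 0.64, adjusted p = 0.865, limma). With the tissue of origin as a replicate block, 4 genes and 16513 probes were called for iPS against somatic cells. The EEF1A1 minus EEF1A2 balance for iPS against ES cells was 0.95 with the slide as a block and 0.0414 to 0.5643 when leaving out 1 array. For late against early iPS cells it was -0.26 after normexp, and for pluripotent against somatic cells -1.85 to 0.24 when leaving out 1 array. Taking the mean of all probes gives no other balance, since both genes have 1 probe. Of the other values per gene, 305 kept direction and side of the threshold, 25 changed sign without being called in either setting, 21 lost and 2 gained the call.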
